A study of Mus musculus with 4 samples.

Results

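Retnla, Chil3, Mgl2, Clec10a, Il4ra, Pparg, Cbr2 and Ear2 are 8 genes commonly read as marks of IL-4-type, or alternative, activation of myeloid cells. They were taken from a written list by their symbols, all 8 were present among the 32285 genes of the count matrices, and each was followed through the myeloid cell types of mouse ascites, the fluid that fills the peritoneal cavity in this tumor model. Their measure was the number of UMIs, the tags that mark single captured RNA molecules, per 1000000 UMIs of all genes in a cell type of one library (CPM). A further 44 genes of the IL-4 and IL-13 pathway, or paralogs of the members, were measured beside them.

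The study examined how silencing of Fxr1 with a locked nucleic acid modified siRNA (siFXR1-LNA) affects tumor cells and immune cells of female FVB mice. All mice carried intraperitoneal Br-Luc tumors (p53-/-, brca1-/-, myc, Akt-myr) for 6 weeks, and both groups received an siRNA-LNA with jetPEI as the carrier, a non-targeting control in the group labelled siCont and an Fxr1 siRNA in the group labelled siFXR1-LNA. Each group held 2 libraries, called siCont 1, siCont 2, siFXR1-LNA 1 and siFXR1-LNA 2 here, and each library pooled the ascites of 3 mice, so that single animals could not be told apart. The methods state that 1 sample of the siFXR1-LNA group was left out of the study's own analysis, whereas all 4 libraries are used here and each was also left out in turn.

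The libraries held 17309 to 54665 barcodes with 78179267 to 113606837 UMIs, and 16874 to 54344 cells passed the limits of the methods. Over all barcodes, Fxr1 itself stood at 57.3 and 36.6 CPM in siCont 1 and 2. In siFXR1-LNA 1 and 2 it stood at 104 and 74.4 CPM. With hemoglobin genes left out of the total, it stood at 81.3, 62.1, 116 and 81.8 CPM in the same order. Over whole libraries the targeted gene was thus not lower where the label carries its name, with siCont 1 and siFXR1-LNA 2 nearly equal. The paper reports lower Fxr1 in epithelial cells, which were not examined here. The groups are therefore named by their labels throughout. Hemoglobin genes took 9.11% to 41.1% of the UMIs, and pairs of libraries shared 575 to 2846 barcode sequences.

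Interleukin 4 and interleukin 13 act on macrophages and dendritic cells through the receptor chain IL-4Rα, the product of Il4ra, and the transcription factor STAT6. Macrophages that receive this signal secrete the resistin-like protein RELMα (Retnla) and the chitinase-like protein Ym1 (Chil3), and they are known from the peritoneal cavity in worm infection, in wound repair and in tumors. STAT6 binds palindromic sites of the form TTCNNNNGAA, while other STAT proteins favor the shorter form TTCNNNGAA, and PPARγ (Pparg) acts beside STAT6 in the lipid metabolism of these cells.

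Retnla and Chil3 were the members with such a motif in front of the gene, so their promoter stretches are shown beside those of Cbr2 and Mgl2, which had none. Each run is the 150 bases from 250 to 101 bases before the RefSeq start of the gene on GRCm38.p6, read 5′ to 3′ on the strand of the gene, and capitals mark the motif. The windows are Retnla on the plus strand at chr16:48842359-48842508, Chil3 on the minus strand at chr3:106167665-106167814, Cbr2 on the minus strand at chr11:120732122-120732271, and Mgl2 on the plus strand at chr11:70130107-70130256.
Retnla: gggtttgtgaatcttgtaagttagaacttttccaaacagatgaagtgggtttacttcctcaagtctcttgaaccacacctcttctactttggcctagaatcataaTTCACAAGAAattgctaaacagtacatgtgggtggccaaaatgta
Chil3: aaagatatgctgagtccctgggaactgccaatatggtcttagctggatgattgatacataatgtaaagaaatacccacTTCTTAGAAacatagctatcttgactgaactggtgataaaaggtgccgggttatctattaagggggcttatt
Cbr2: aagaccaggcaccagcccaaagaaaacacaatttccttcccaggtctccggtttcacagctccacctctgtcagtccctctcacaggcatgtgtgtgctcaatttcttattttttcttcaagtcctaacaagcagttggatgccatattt
Mgl2: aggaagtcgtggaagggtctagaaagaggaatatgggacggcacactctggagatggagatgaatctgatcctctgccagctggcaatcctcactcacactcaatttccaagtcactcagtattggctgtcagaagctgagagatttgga

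Both motifs read the same on either strand. TTCNNNNGAA began 145 bases before the start of Retnla and TTCNNNGAA began 172 bases before the start of Chil3. RefSeq promoters were at hand for 7 of the 8 members, and those of Cbr2, Mgl2, Il4ra, Pparg and Ear2 held neither form in the 250 bases before the start. Over 32851 mouse promoters, 5.85% held the longer form and 7.02% the shorter form in the same window, so a match alone is common and is given as a description.

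Among 132644 cells, 30277 myeloid cells were clustered again with the 8 members left out of the clustering genes and of the marker lists, and 29292 were used. Clusters were named from markers, which gave 12 named types, each written as "-like". Clusters led by B or T cell genes were left out, and 1 cluster of 1204 cells led by Cacna1d, Lrmda and Dst stayed unnamed and was counted only in sums over all myeloid cells. Resident-type peritoneal macrophage-like cells (Prg4, Alox15, Selp, F5) numbered 171 and 603 in siCont 1 and 2 and 447 and 713 in siFXR1-LNA 1 and 2, and Lyve1 Folr2 macrophage-like cells numbered 2523, 406, 29 and 412 in the same order.

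The libraries differed sharply in which myeloid cells they held. Nos2 inflammatory macrophage-like cells were 2077 and 1880 in siFXR1-LNA 1 and 2 against 0 and 1 in siCont 1 and 2, and mature neutrophil-like cells were 5446 and 4734 against 3 and 35. Patrolling monocyte-like cells went the other way, with 1054 and 716 cells in siCont 1 and 2 against 1 and 2. Of the 8 markers behind the Nos2 name, 4 were raised in that cluster. In siFXR1-LNA 1 and 2, Nos2 stood at 447 and 424 CPM and Acod1 at 495 and 605 CPM. Slc7a2 stood at 243 and 229 CPM and Il1a at 47.0 and 62.0 CPM there. Cxcl9, Ptgs2, Il12b and Cxcl10 stood at no more than 8.86 CPM in these libraries. The cDC2-like type joined a cluster that all libraries shared with a second cluster of 474 and 300 cells that came from the siCont libraries alone. A test of the members between the groups was possible in 9 types with at least 10 cells in every library, and in the sum of all myeloid cells.

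**Figure D1:**
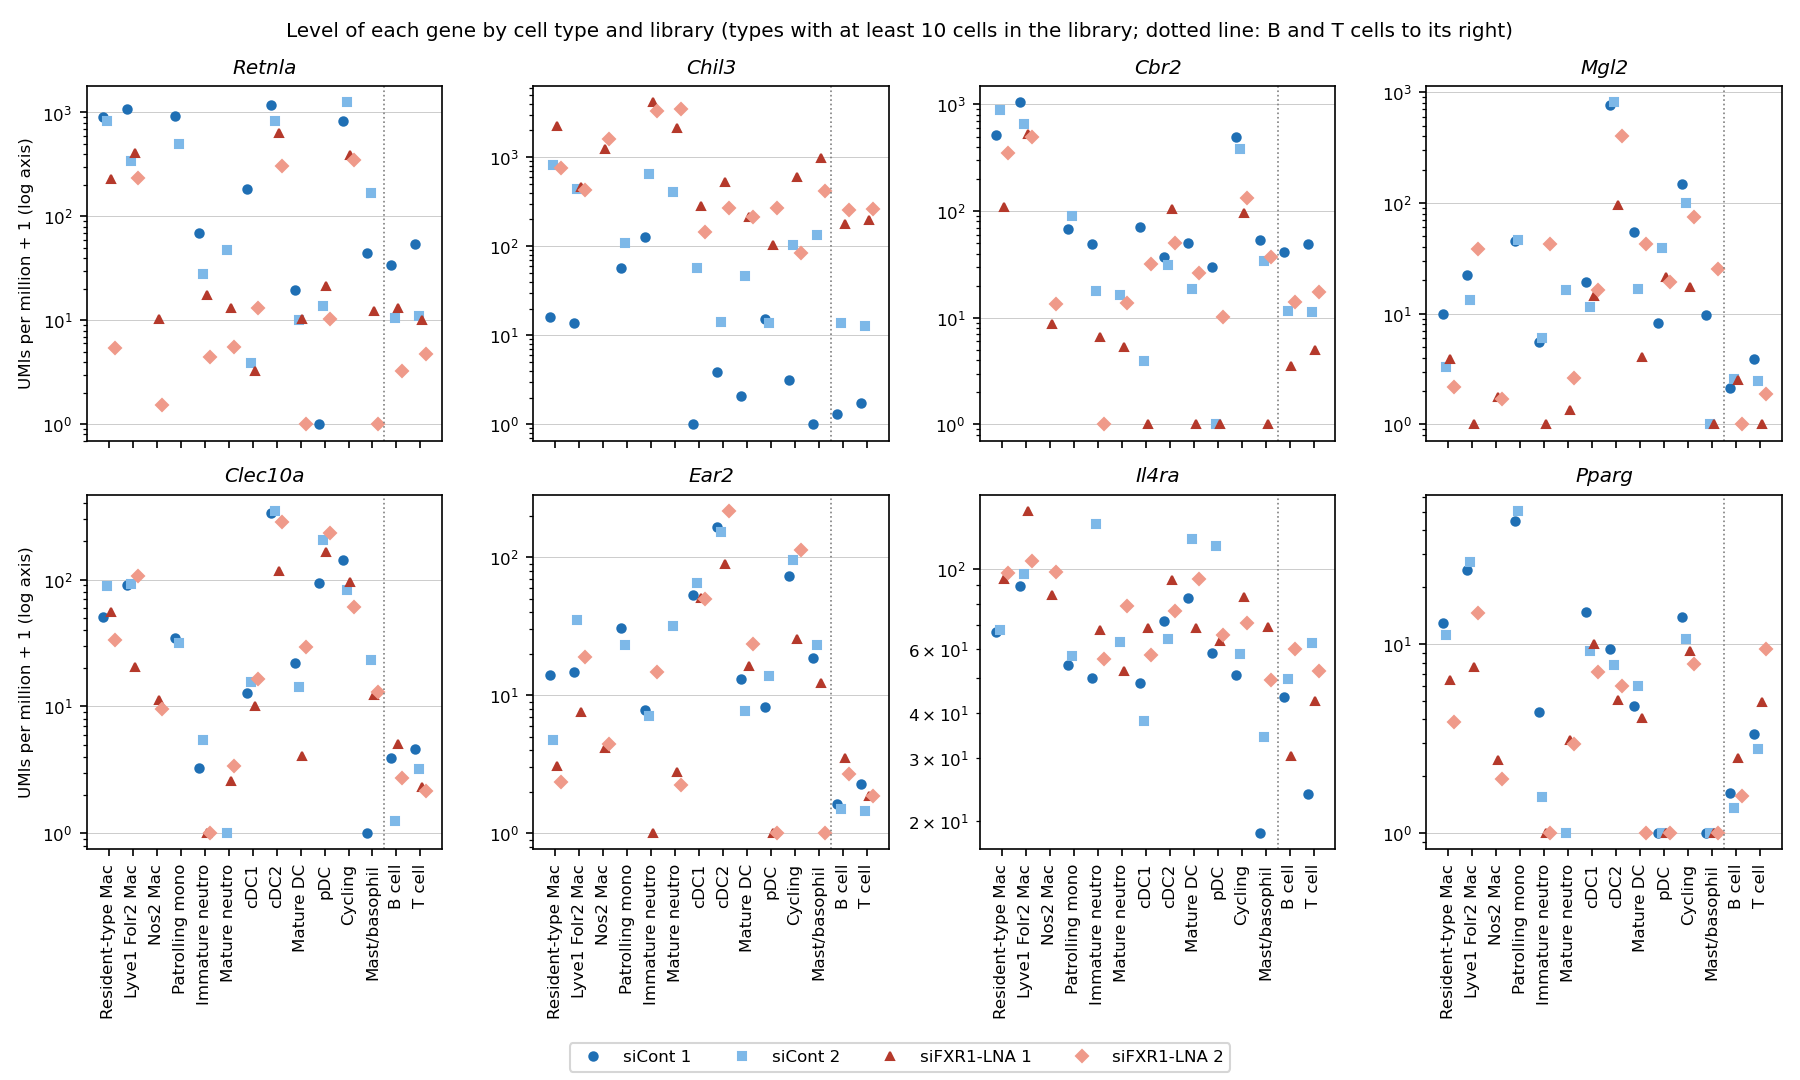
Level of each of the 8 genes (CPM plus 1, log axis) in each named myeloid type and in B and T cells, with 1 point per library and blue for siCont and red for siFXR1-LNA. Retnla, Cbr2 and Mgl2 sit high in a few types, Il4ra is nearly level over all types, and Chil3 in B and T cells is near 0 in siCont 1 and between 179 and 261 in the red libraries.

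The 8 genes did not mark one common cell. Mgl2, Clec10a and Ear2 had their highest mean level in cDC2-like cells, Cbr2 and Il4ra in Lyve1 Folr2 macrophage-like cells, Chil3 in immature neutrophil-like cells, Pparg in patrolling monocyte-like cells, and Retnla in cDC2-like cells, followed closely by patrolling monocytes and cycling cells. Means used libraries with at least 10 cells, for patrolling monocytes the siCont libraries alone. Over the siCont libraries, mean Retnla was 1041 CPM in cycling cells, 1009 in cDC2-like cells and 711 in patrolling monocytes. The tests between the library groups called 4 of 51 pairs of a member and a type, where 0.815% of the tests of all genes were called higher and 0.786% lower. Chil3 was higher in cDC2-like and in immature neutrophil-like cells of the libraries labelled siFXR1-LNA, and Retnla and Cbr2 were lower in cycling myeloid cells. Over all myeloid cells together, the libraries labelled siFXR1-LNA held less of 6 of the 8 members, where 10.2% of all genes tested were called lower and 8.73% higher. These tests were edgeR's quasi-likelihood tests on UMI sums per library with Benjamini-Hochberg adjustment over all genes tested in the type, and values after ± are standard errors on the log2 scale.

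Il4ra, the receptor chain shared by IL-4 and IL-13, lies on chromosome 7 from 125552120 to 125579474 (GRCm38) and was the most even of the members. Its mean level was 108 CPM in Lyve1 Folr2 macrophage-like cells, 90.6 in mature DC-like cells, 90.4 in Nos2 macrophage-like cells and 80.5 in resident-type macrophage-like cells, and neighbors in this order overlapped in their libraries. B cells held 29.3 to 59.1 CPM and T cells 22.7 to 61.2 CPM, so the receptor was measured outside the myeloid cells at a level not far below. In resident-type macrophage-like cells it was 66.0 and 66.7 CPM in siCont 1 and 2 and 92.9 and 96.5 CPM in siFXR1-LNA 1 and 2. The groups did not overlap there, but the change of 0.53 ± 0.19 did not pass (edgeR adjusted p = 0.494). How many of all genes separated in this way within a type was not counted. Nothing is therefore read from groups that do not overlap, here or in the types below. Il4ra was not called in any of the 7 types where it was tested, nor over all myeloid cells (0.36 ± 0.13, edgeR adjusted p = 0.111).

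Pparg, which encodes a lipid-sensing nuclear receptor, lies on chromosome 6 from 115360951 to 115490399 and was the lowest member, with 1965 UMIs over all cells. Patrolling monocyte-like cells carried 43.8 and 49.7 CPM in siCont 1 and 2 and were the one type whose libraries lay above those of the next type in the order. Lyve1 Folr2 macrophage-like cells followed with 23.7 and 26.2 CPM in siCont 1 and 2 and 6.53 and 13.6 CPM in siFXR1-LNA 1 and 2, the first of these resting on a single UMI. The groups did not overlap in either resident-type macrophages (12.003, 10.2, 5.44 and 2.89 CPM) or Lyve1 Folr2 macrophages, yet neither change passed, at -1.43 ± 0.50 (edgeR adjusted p = 0.471) and -0.98 ± 0.36 (edgeR adjusted p = 0.829).

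Retnla lies on chromosome 16 from 48842551 to 48844461, next to its paralog Retnlg, and encodes the secreted protein RELMα. In cDC2-like cells it stood at 1192 and 826 CPM in siCont 1 and 2 and at 633 and 304 CPM in siFXR1-LNA 1 and 2. Resident-type macrophage-like cells held 894, 832, 230.2 and 4.43 CPM in the same order of libraries, and Lyve1 Folr2 macrophage-like cells held 1089.6, 338, 405 and 235 CPM. B cells, which should not make Retnla, held 33.1, 9.61, 12.1 and 2.27 CPM. These types lay well above the B cell level except for resident-type cells of siFXR1-LNA 2, which were at 1.95 times that level.

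The libraries labelled siFXR1-LNA lay far apart from each other in resident-type macrophages, and the change of -2.84 ± 1.38 there did not pass (edgeR adjusted p = 0.604). In Lyve1 Folr2 macrophages the change was -1.28 ± 0.50 (edgeR adjusted p = 0.873), and in cDC2-like cells it was -1.15 ± 0.38 (edgeR adjusted p = 0.169). In the cDC2-like cluster that all libraries shared, Retnla stood at 2556 and 1856 CPM in siCont 1 and 2 and at 633 and 304 CPM in siFXR1-LNA 1 and 2, while the cluster of siCont cells alone held 20.8 and 121 CPM. With the shared cluster alone, an alternative chosen after seeing the data, the change was -2.29 ± 0.38, which did not pass either (edgeR adjusted p = 0.127). Patrolling monocytes, of which the libraries labelled siFXR1-LNA held 1 and 2 cells, carried 930.1 and 491 CPM in siCont 1 and 2. Nos2 macrophage-like cells, of which the siCont libraries held 0 and 1, carried 9.22 and 0.536 CPM in siFXR1-LNA 1 and 2, at or below the B cells of the same libraries.

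Few cells carried most of the Retnla. In patrolling monocyte-like cells of siCont 1, 134 of 1054 cells had a UMI and 10 of them held 50% of the 4420 Retnla UMIs, and a single cell held 337. Lyve1 Folr2 macrophages of siCont 1 had 729 of 2523 cells with a UMI, of which 39 held 50% of 15611 UMIs, and cDC2-like cells of siCont 1 had 190 of 991, of which 18 held 50% of 5332 UMIs. The CPM of Retnla in a type thus rested on a small subset of strongly positive cells, and a value from a small group of cells is less firm than its UMI number shows. In the 29 Lyve1 Folr2 macrophage-like cells of siFXR1-LNA 1, all 62 UMIs lay in 1 cell.

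Cycling myeloid cells (Mki67, Top2a, Birc5) were the one type in which Retnla was called lower, with 826 and 1256 CPM in siCont 1 and 2 and 392 and 349 CPM in siFXR1-LNA 1 and 2. The groups did not overlap and the change was -1.37 ± 0.24 (edgeR adjusted p = 0.00710), in a type where 2.28% of all genes tested were lower and 2.52% higher. The libraries labelled siFXR1-LNA held 26 and 52 cycling cells, of which 3 and 10 had a Retnla UMI, and in siFXR1-LNA 1 a single cell held 91 of 95 UMIs. The test reads library sums and does not see this spread among cells. The call was lost without siFXR1-LNA 1 or without siFXR1-LNA 2. Such a fit leaves 1 library in that group and takes the spread from siCont alone, so it cannot show how stable the call is.

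Cbr2, a carbonyl reductase known from lung and from resident macrophages, lies on chromosome 11 from 120729489 to 120732114. In cycling cells it stood at 491 and 381 CPM in siCont 1 and 2 and at 94.8 and 131 CPM in siFXR1-LNA 1 and 2, a change of -1.78 ± 0.23 (edgeR adjusted p = 0.00134). This was the one call of a member within a type that held under all 15 alternatives, though those without 1 library leave 1 library in a group. In siFXR1-LNA 1, 6 of 26 cells held 23 Cbr2 UMIs, 52.2% of them in 1 cell, and in siFXR1-LNA 2, 17 of 52 cells held 77. Cbr2 lay at 10.04 to 37.6 times its B cell level. The change minus that of B cells was -0.20 ± 0.62 for Cbr2 (edgeR adjusted p = 0.954) and 0.19 ± 0.72 for Retnla (0.972), with 46 of 11320 genes past the threshold. This comparison with the change of B cells, here and below, was added after the levels were seen. The makeup of the cycling cells differed as well: the summed dendritic cell list was 249, 167, 4.12 and 30.7 CPM in the 4 libraries, the neutrophil list 58.4, 134, 1034 and 465 CPM, and the macrophage list 14684, 11937, 9776 and 8596 CPM. The T cell list summed to 0 to 26.0 CPM and the B cell list to 16.5 to 134 CPM, while of the 8 dendritic cell markers 7, Flt3, Clec9a, Xcr1 and Cd209a among them, were at 0 in at least 1 library. The part of these markers in the lower Retnla and Cbr2 was not tested.

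Outside the cycling cells, Cbr2 had its highest levels in macrophages. Lyve1 Folr2 macrophage-like cells carried 1050.1 and 656 CPM in siCont 1 and 2 and 523 and 497 CPM in siFXR1-LNA 1 and 2, and resident-type cells carried 519, 888, 107 and 351 CPM. The groups did not overlap in either type, from which alone nothing is read. The changes were -0.80 ± 0.29 (edgeR adjusted p = 0.824) and -1.62 ± 0.54 (edgeR adjusted p = 0.457), while Nos2 macrophage-like cells held 7.78 and 12.5 CPM beside the 2.52 and 13.1 CPM of B cells. In siFXR1-LNA 1 the cDC2-like cells matched the resident-type cells at 104 CPM and gave 39.6% of the 905 myeloid Cbr2 UMIs, more than any other type of that library.

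The resident-type and Lyve1 Folr2 macrophages had no call among the 8 members. In resident-type cells edgeR called 0% of 11140 genes in either direction, with 4 members and 997 genes at an unadjusted p under 0.05, and DESeq2 called 0 members and 116 genes. In Lyve1 Folr2 cells edgeR called 0.0849% of 10600 genes higher and 0.0377% lower, with 3 members and 528 genes at an unadjusted p under 0.05, and DESeq2 called 0 members and 30 genes. The median change over the 8 members was -1.35 in resident-type and -0.34 in Lyve1 Folr2 macrophages, beside 0.01 and -0.03 over all genes tested. The summed markers of the resident type were 4200 CPM in siCont 1, 2437 in siCont 2, 2121 in siFXR1-LNA 1 and 533 in siFXR1-LNA 2, so the cells under this name were not alike in all 4 libraries.

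**Figure D2:**
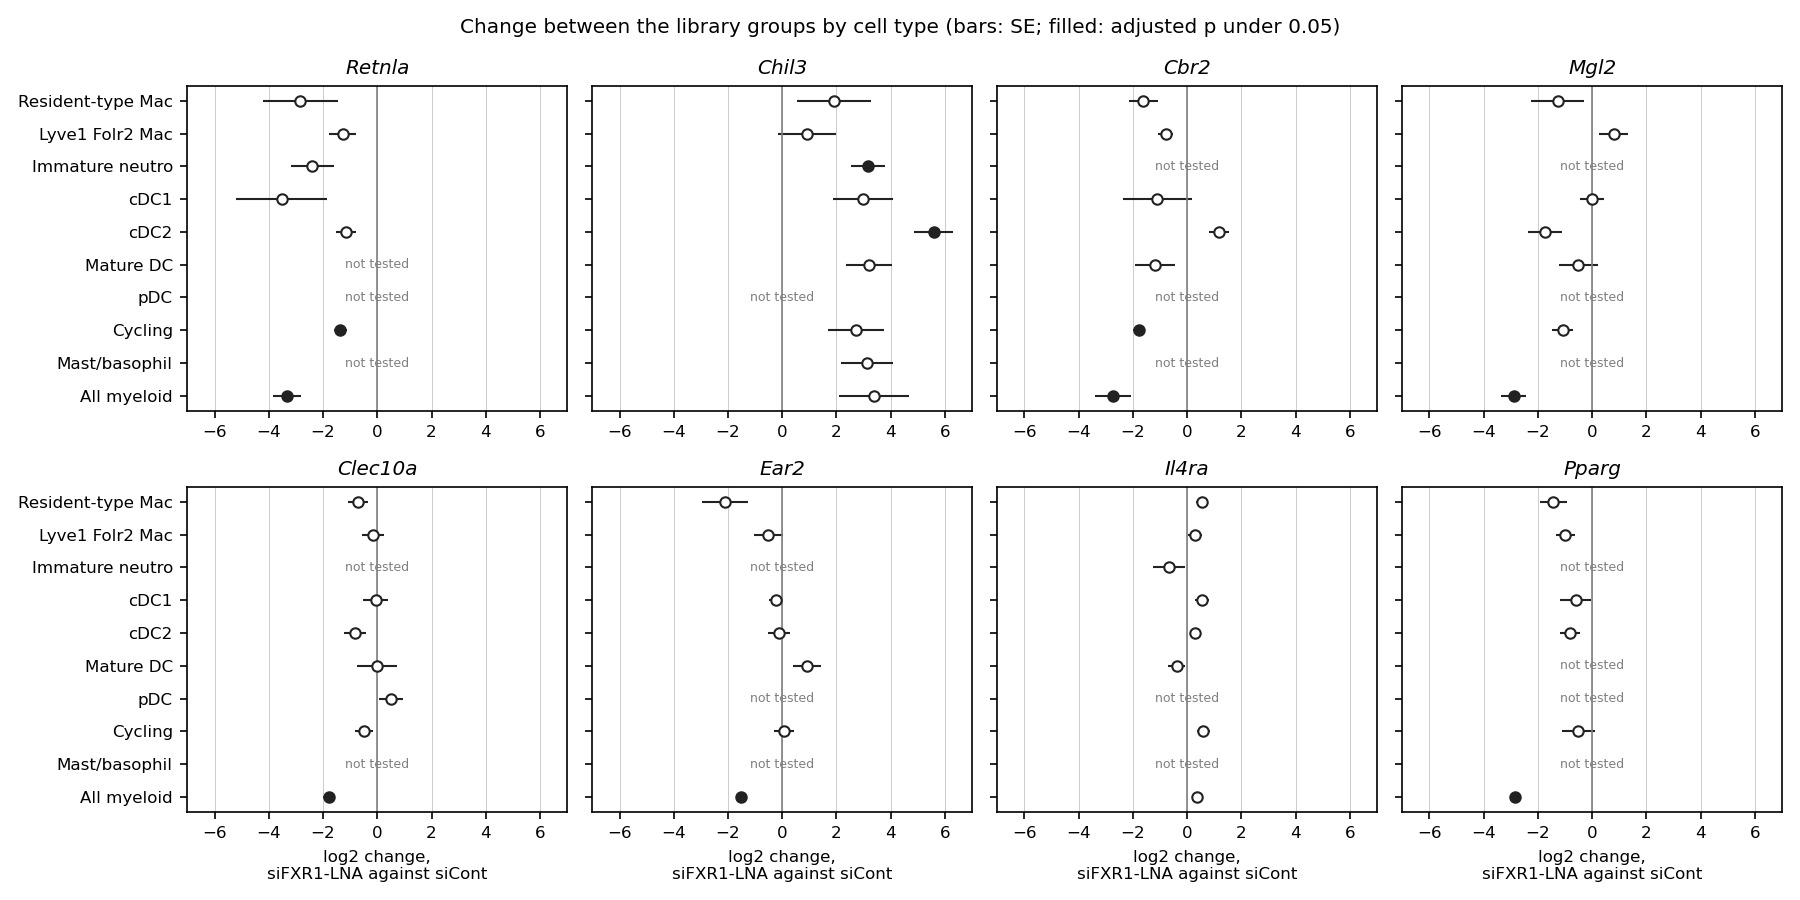
Log2 change of each gene in the libraries labelled siFXR1-LNA against those labelled siCont, by myeloid type and over all myeloid cells, with bars for 1 standard error and filled points for an adjusted p under 0.05. The filled points are Chil3 in cDC2-like and immature neutrophil-like cells, Retnla and Cbr2 in cycling cells, and 6 genes over all myeloid cells.

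Chil3 lies on chromosome 3 from 106147554 to 106167564 and encodes Ym1, a secreted chitinase-like protein made by alternatively activated macrophages and, as background, also by neutrophils and their precursors. It was the most abundant member, with 157375 UMIs, and neutrophils led its mean levels. In siCont 2, however, resident-type macrophage-like cells lay above both neutrophil types at 814 CPM and gave 56.4% of its myeloid UMIs. Immature neutrophil-like cells (Camp, Ngp, Ltf) carried 125 and 643 CPM in siCont 1 and 2 and 4145 and 3304 CPM in siFXR1-LNA 1 and 2. Mature neutrophil-like cells carried 400.5 CPM in the 35 cells of siCont 2 and 2109 and 3510.1 CPM in siFXR1-LNA 1 and 2, and Nos2 macrophage-like cells carried 1247 and 1598 CPM.

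Chil3 was spread over most cells of these types in the siFXR1-LNA libraries. It had a UMI in 84.9% and 90.4% of mature neutrophil-like cells of siFXR1-LNA 1 and 2, and in 70.1% and 77.3% of Nos2 macrophage-like cells. After thinning to 1000 UMIs per cell the shares were 73.4% and 81.9% of neutrophils and 44.6% and 48.9% of Nos2 macrophages. B cells had median depths of 2022 and 2289.5 UMIs in these libraries, against 1866.5 and 2108 in mature neutrophils and 7041 and 10713.5 in Nos2 macrophages. Their shares were 17.2% and 17.8%, or 9.79% and 11.5% after thinning, and are taken as the background. In the siCont libraries the shares before thinning were lower, 3.55% and 26.2% of immature neutrophil-like cells and 28.6% of the mature neutrophil-like cells of siCont 2. They were 92.7% and 70.4% of immature cells in siFXR1-LNA 1 and 2. Depth differed as well, with 1738 and 1934 UMIs per immature cell in siCont 1 and 2 against 4401 and 5364 in siFXR1-LNA 1 and 2. Its part in these shares was not tested.

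That background changed with the library and has to be read beside every Chil3 value. B cells held 0.314 and 12.9 CPM in siCont 1 and 2 and 179 and 253 CPM in siFXR1-LNA 1 and 2, and T cells held 0.722, 11.6, 196 and 261 CPM. The Chil3 of cDC1-like cells (0, 56.4, 282 and 142 CPM), mature DC-like cells (1.06, 45.7, 212 and 210.0 CPM) and pDC-like cells (14.4, 12.7, 103 and 268 CPM) was 0.561 to 1.58 times the B cell level in the libraries labelled siFXR1-LNA. Those levels were like that of B cells there, and whether they are free RNA or expression was not tested. The Chil3 change minus that of B cells was -1.66 ± 0.36 in mature DC-like cells (edgeR adjusted p = 0.0251). In that comparison 128 of 11287 genes passed. For cDC1-like and pDC-like cells it was -1.81 ± 0.53 and -1.38 ± 1.06, which did not pass.

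In cDC2-like cells Chil3 stood at 2.91 and 13.1 CPM in siCont 1 and 2 and at 530.5 and 266 CPM in siFXR1-LNA 1 and 2. The change of 5.59 ± 0.72 passed (edgeR adjusted p = 0.0307), where 0.946% of all genes were called higher and 0.929% lower. DESeq2 called 2 members in these cells, beside 615 of 11306 genes. The change of B cells was 4.85 ± 1.22 (edgeR adjusted p = 0.193), the difference between the changes was 0.55 ± 0.69 (edgeR adjusted p = 0.854, with 0.158% of all genes past the threshold), and the level was 2.97 and 1.05 times that of B cells in siFXR1-LNA 1 and 2. With the shared cDC2-like cluster alone, an alternative chosen after seeing the data, the change was 4.89 ± 0.99 and no longer passed (edgeR adjusted p = 0.169).

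In immature neutrophil-like cells the rise of 3.17 ± 0.62 passed (edgeR adjusted p = 0.0259), where 0.207% of genes were called higher and 0.499% lower. The level was 23.2 and 13.04 times that of B cells in siFXR1-LNA 1 and 2. The ratios of siCont 1 and 2, 397 and 49.9, divide by only 0.314 and 12.9 CPM in B cells. The change of B cells starts from these same low levels. The change of the immature neutrophil-like cells was below that of B cells by 2.23 ± 0.45 (edgeR adjusted p = 0.000996, with 3.09% of all genes past the threshold). The cells under this name differed too: the summed immature neutrophil markers were 4258 and 8488 CPM in siCont 1 and 2 and 33756 and 34198 CPM in siFXR1-LNA 1 and 2, the siFXR1-LNA libraries held 41 and 54 such cells, and hemoglobin took 24.9% and 26.1% of their UMIs in siCont against 5.41% and 6.90%. The part of this in the change of Chil3 was not tested. The call was lost with DESeq2 (adjusted p = 0.111), with at least 500 genes per cell, with hemoglobin genes left out (chosen after seeing the data), and with types set from the marker UMIs of each cell, where the change was 0.68 ± 0.47.

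The 2 siCont libraries disagreed on Chil3 more than on any other member in the macrophages. Resident-type macrophage-like cells held 15.004 CPM in siCont 1 and 814 CPM in siCont 2, which lay above the 755 CPM of siFXR1-LNA 2 and below the 2258 CPM of siFXR1-LNA 1. Lyve1 Folr2 macrophage-like cells held 12.9 CPM in siCont 1 and 441, 457 and 429 CPM in the other three libraries. The groups overlapped in both types and neither change passed (1.90 ± 1.36, edgeR adjusted p = 0.731, and 0.90 ± 1.07, edgeR adjusted p = 1.00), and in Lyve1 Folr2 cells the change was below that of B cells by 3.93 ± 0.43 (edgeR adjusted p = 1.28e-16, with 2.5% of all genes past the threshold).

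Mgl2 and Clec10a are neighboring genes on chromosome 11 (70130329 to 70137550 and 70156197 to 70170834) that encode the galactose-type lectins CD301b and CD301a, surface receptors of dendritic cells and macrophages. Mgl2 was the member most bound to one type: cDC2-like cells held 78.3% to 88.8% of its myeloid UMIs in every library. Its level there was 769 and 812 CPM in siCont 1 and 2 and 94.0 and 399.7 CPM in siFXR1-LNA 1 and 2, against at most 1.58 CPM in B cells. It had a UMI in 55.7% and 51.7% of cDC2-like cells in siCont 1 and 2 and in 15.03% and 34.1% in siFXR1-LNA 1 and 2, and after thinning in 35.6%, 32.1%, 6.45% and 20.04%.

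The groups did not overlap, but the change of Mgl2 in cDC2-like cells, -1.74 ± 0.62, did not pass (edgeR adjusted p = 0.188). Part of the siCont values came from the cluster of siCont cells alone, which held 981 and 1121 CPM. In the shared cluster Mgl2 stood at 522 and 361 CPM in siCont 1 and 2, on either side of 399.7 CPM in siFXR1-LNA 2, and the change was -0.90 ± 0.61 (edgeR adjusted p = 0.586). Clec10a followed the same cells with 331, 346, 116 and 283 CPM, and it was also present in pDC-like cells (93.3, 204, 165 and 231 CPM) and in Lyve1 Folr2 macrophages (90.1, 90.4, 19.6 and 106 CPM). Clec10a was not called in any type, with -0.82 ± 0.40 in cDC2-like cells (edgeR adjusted p = 0.288).

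Ear2, an eosinophil-associated ribonuclease, lies on chromosome 14 from 44102654 to 44103534 among near-identical paralogs that can share its reads, so its values are uncertain to that extent. It stood at 166, 151, 87.9 and 216 CPM in cDC2-like cells and at 52.1, 64.0, 49.6 and 48.9 CPM in cDC1-like cells, and B cells held at most 2.52 CPM. Its groups overlapped in cDC2-like cells, where the change was -0.11 ± 0.40 (edgeR adjusted p = 0.896). In the shared cluster alone it stood at 275 and 233 CPM in siCont 1 and 2 and at 87.9 and 216 CPM in siFXR1-LNA 1 and 2, and the cluster of siCont cells alone held 71.4 and 94.4 CPM. The groups did not overlap in the shared cluster, where the change was -0.81 ± 0.41 (edgeR adjusted p = 0.487). In resident-type macrophages, where it was low, the change of -2.12 ± 0.84 rested on 5 to 21 UMIs per library and did not pass (edgeR adjusted p = 0.535).

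The name cDC2-like fitted the libraries unequally. In the shared cluster the cDC2 marker Cd209a stood at 660.0 and 408 CPM in siCont 1 and 2 and at 20.5 and 186 CPM in siFXR1-LNA 1 and 2, and Apoe, a macrophage marker, at 553, 910.0, 4861 and 2651 CPM. Both were picked after their values were seen. Of the 7 cDC2 markers, Cd209a, Cd209d, Clec4b1 and Flt3 were lower in both libraries labelled siFXR1-LNA. Kmo and Ffar2 overlapped between the groups, and Clec4a4 was higher (0.484, 3.34, 5.50 and 9.16 CPM). Of the 9 macrophage markers, Apoe, Adgre1, C1qa, C1qc and Mertk were higher in both, whereas Csf1r, C1qb, Fcgr1 and Cd68 overlapped, with Cd68 level at 255, 259, 240.1 and 261 CPM. When the myeloid cells were clustered at a lower resolution, 683 of its 898 cells of siFXR1-LNA 1 (76.1%) and 43.9% of those of siFXR1-LNA 2 moved into the Lyve1 Folr2 macrophage-like cluster, against 6.96% and 23.1% in siCont 1 and 2. The values of Mgl2, Clec10a, Retnla, Chil3, Cbr2 and Ear2 in cDC2-like cells stand beside this difference, whose part in them was not tested.

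Over all myeloid cells together, most members lay lower in the libraries labelled siFXR1-LNA. Retnla stood at 879 and 565 CPM in siCont 1 and 2 and at 90.4 and 37.7 CPM in siFXR1-LNA 1 and 2, and Cbr2 at 536, 323, 25.2 and 91.1 CPM. Mgl2 stood at 136, 161, 10.2 and 25.9 CPM, Clec10a at 104, 104, 21.9 and 32.1 CPM, Ear2 at 43.2, 47.4, 11.7 and 16.8 CPM, and Pparg at 21.0, 19.5, 2.32 and 2.78 CPM. In each of these 6 genes both libraries labelled siFXR1-LNA lay below both siCont libraries. How many of all genes separated in this way was not counted, so nothing is read from it. Chil3 went the other way with 18.5, 315, 1456 and 1709.7 CPM, and Il4ra held 73.0, 71.7, 75.5 and 91.4 CPM.

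All 6 falls passed, in a comparison where 10.2% of all genes tested were called lower and 8.73% higher. The changes were -3.32 ± 0.52 for Retnla (edgeR adjusted p = 0.0231), -2.89 ± 0.46 for Mgl2 (0.0234), -2.83 ± 0.18 for Pparg (0.0106), -2.73 ± 0.65 for Cbr2 (0.0499), -1.79 ± 0.20 for Clec10a (0.0147) and -1.51 ± 0.20 for Ear2 (0.0185). The change of Chil3, 3.38 ± 1.30, did not pass (edgeR adjusted p = 0.130). DESeq2 called 7 of the 8 members here, beside 3980 of 15564 genes. None of the 6 passed without siFXR1-LNA 1 or without siFXR1-LNA 2, although all kept their direction there, and Cbr2 also failed without siCont 1 or without siCont 2. Each of these fits leaves 1 library in a group and takes the spread from the other group alone. Cbr2 failed too with types set from the marker UMIs of each cell. It also failed with the 5% highest Scrublet doublet scores removed, and with hemoglobin genes left out (chosen after seeing the data). With either of the siFXR1-LNA libraries left out, edgeR called 0% of all genes. In these sums, fewer cells of a type and less RNA of a gene per cell cannot be told apart.

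The cells that supplied each gene differed between the libraries. Patrolling monocytes gave 15.6% and 19.98% of the myeloid Retnla UMIs and 30.6% and 58.7% of the Pparg UMIs in siCont 1 and 2, and they were all but absent from the other libraries. The largest source of Retnla differed between libraries of the same group as well: Lyve1 Folr2 macrophages gave 55.0% in siCont 1 and 41.7% in siFXR1-LNA 2, resident-type macrophages 32.1% in siCont 2, and cDC2-like cells 67.5% in siFXR1-LNA 1 and 40.9% in siFXR1-LNA 2. Mature neutrophils gave 45.5% and 48.9% of the Chil3 UMIs and Nos2 macrophages 36.5% and 40.7%, cell types that the siCont libraries hardly held. Mgl2 came mostly from cDC2-like cells in all 4 libraries, but 53.8% and 71.2% of its myeloid UMIs in siCont 1 and 2 lay in the cluster of siCont cells alone.

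**Figure D3:**
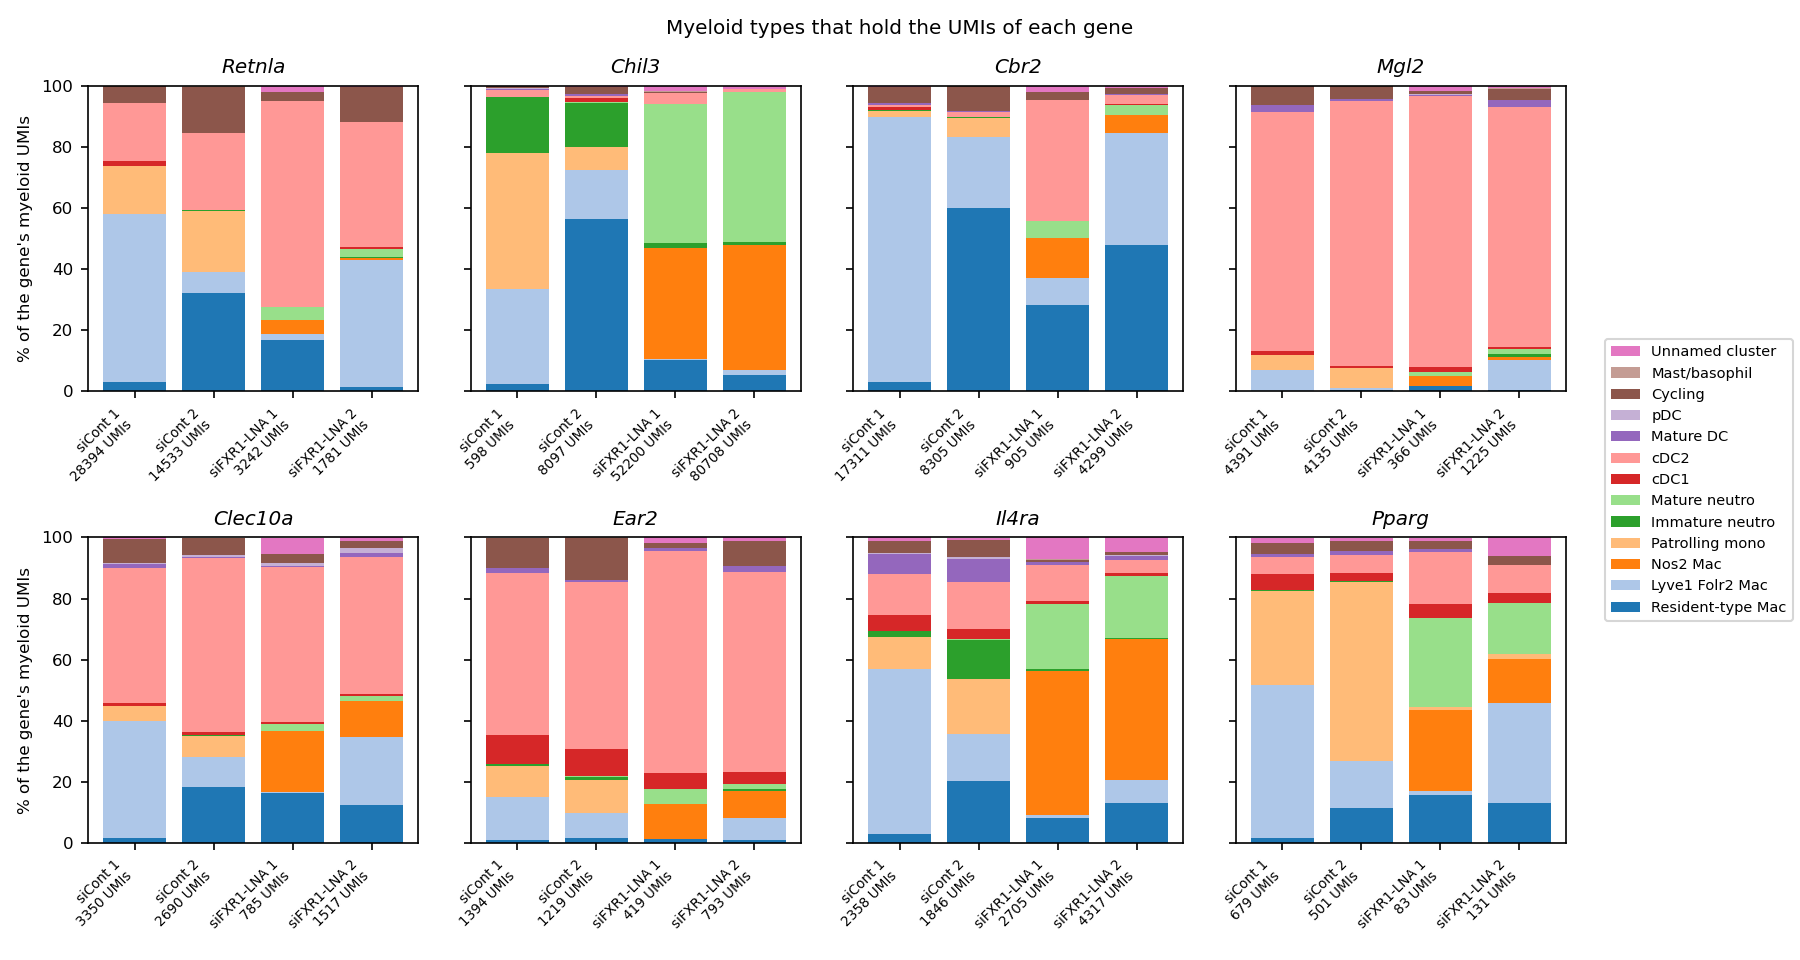
Share of each gene's myeloid UMIs (percent, stacked to 100) that lay in each myeloid type, with 1 bar per library and the number of UMIs under it. Mgl2 came mostly from cDC2-like cells in every library, whereas Chil3 came from neutrophils and Nos2 macrophages in the libraries labelled siFXR1-LNA.

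To ask whether a change differed between lineages, macrophages, neutrophils and dendritic cells were compared in one model with the library as a block. Of 24 differences, 9 passed, 5 of them between dendritic cells and macrophages: the macrophage changes of Retnla, Pparg, Cbr2, Clec10a and Ear2 lay below those of dendritic cells, where Cbr2 (0.80) and Ear2 (0.09) had changes above 0. The others set neutrophils against macrophages or dendritic cells and rested on low values, since Retnla in immature neutrophil-like cells was 1.37 to 2.77 times its B cell level, Ear2 in neutrophils was at most 6.97 CPM and the Pparg of siCont neutrophils came to 3 and 1 UMIs, so nothing is read from them. Retnla stood at 1077 and 662 CPM in macrophages of siCont 1 and 2 and at 42.2 and 26.4 CPM in those of siFXR1-LNA 1 and 2, against 645, 495, 513 and 193 CPM in dendritic cells. The difference between these changes of Retnla was 3.50 ± 0.34 (edgeR adjusted p = 0.000415). Over all genes 2.96% passed for neutrophils against macrophages, 4.58% for dendritic cells against macrophages and 1.17% for dendritic cells against neutrophils. The broad macrophage class held the Nos2 cells, of which all but 1 came from the libraries labelled siFXR1-LNA. The dendritic cell class held the cDC2-like cells, of which 76.1% in siFXR1-LNA 1 moved into the Lyve1 Folr2 macrophage-like cluster at the lower resolution. In that library cDC2-like cells gave 358 Cbr2 UMIs, and cDC1-like, mature DC-like and pDC-like cells 0. The part of this in the differences was not tested. With the clusters that every library held, an alternative chosen after seeing the data, 0 of the 24 passed by edgeR, with 8 at an unadjusted p under 0.05 and 0.254% of all genes past the threshold, and no other tool was run.

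Of the other genes of the pathway, those nearest to the cytokines themselves were hardly seen in myeloid cells. Il4 had 36, 14, 5 and 10 UMIs and Il13 had 1, 0, 0 and 0 UMIs over all myeloid cells of the 4 libraries. Stat6, the factor downstream of the receptor, was even, at 75.0, 78.2, 61.7 and 77.9 CPM, as was Il13ra1, the second chain of the IL-13 receptor, at 37.3, 58.5, 50.7 and 57.6 CPM. Over the 9 types, 15 of 207 tests of the 44 listed genes passed, 12 higher and 3 lower, where 0.815% of the tests of all genes in these types were called higher and 0.786% lower, and over all myeloid cells 9 of 39 were higher and 10 lower.

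Listed targets of IL-4 did not move as one group over all myeloid cells. Arg1, which breaks down arginine and is the best known target of the list, was higher, at 830.2 and 1348 CPM in siCont 1 and 2 and 3155 and 3309 CPM in siFXR1-LNA 1 and 2 (1.72 ± 0.32, edgeR adjusted p = 0.0310). Il1rn, the IL-1 receptor antagonist, was higher as well (3.71 ± 0.30, edgeR adjusted p = 0.0119). Mrc1, the mannose receptor, was lower, at 328, 224, 83.0 and 124 CPM (-1.26 ± 0.26, edgeR adjusted p = 0.0392), as were the chemokines Ccl17 and Ccl22, Cdh1 and Flt1. Of the 16 listed targets, 2 were higher and 5 lower, with a median change of -0.89 beside 0.01 over all genes.

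Among receptor, signal and regulator genes, Irs2, Cebpb, Kdm6b and Socs3 were higher and Il2rg, Tyk2, Irf4 and Socs1 lower over all myeloid cells. Irf4, a factor of dendritic cells and of alternative activation, went from 21.7 and 19.7 CPM to 1.59 and 4.19 CPM. The paralogs Chil1 and Ppard were higher and Cd209a, which also served to name cDC2-like cells, was lower, as was Ccl22, which served to name mature DC-like cells. Ear6 had 0 UMIs in both siCont libraries and 116 and 202 in siFXR1-LNA 1 and 2, and its reads may be shared with Ear2.

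EdgeR called no member in the remaining 4 types, where 0.708% of all genes were called higher and 0.32% lower in cDC1-like cells, 1.46% and 1.87% in mature DC-like cells, 0.749% and 0.312% in pDC-like cells, and 0.334% and 0.468% in mast cell or basophil-like cells. In that order of types, 1, 1, 0 and 1 members had an unadjusted edgeR p under 0.05, beside 1086, 1315, 183 and 175 genes, and DESeq2 called 0 members in each, beside 119, 195, 15 and 21 genes. Several calls of the longer list within types have to be read beside the levels of B cells. Arg1 was called higher in mature DC-like cells (92.0, 69.0, 366 and 314 CPM) and in pDC-like cells (43.1, 25.5, 351 and 554 CPM), while B cells of the same libraries held 50.4, 34.1, 309 and 369 CPM. Chil1 and Retnlg, genes of neutrophils and here paralogs of Chil3 and Retnla, were called higher in cDC1-like and mature DC-like cells, and Chil1 in cDC2-like cells, with B cells at 1.99, 2.07, 11.6 and 27.8 CPM of Chil1 and 3.67, 121, 303 and 327 CPM of Retnlg. Il1rn, called higher in mature DC-like cells, stood at 14.8, 14.96, 89.2 and 79.5 CPM there against 12.6, 3.04, 32.8 and 63.7 CPM in B cells. Ccl17, called higher in cDC1-like cells, stood at 3.56, 1.18, 27.0 and 48.9 CPM, so the siFXR1-LNA libraries alone lay clearly above the B cell level of at most 3.53 CPM.

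In cycling cells, where Retnla and Cbr2 were lower, the eosinophil chemokine Ccl24 was lower too, at 142, 111, 20.6 and 39.2 CPM (-1.82 ± 0.29, edgeR adjusted p = 0.00474), and Cd209a with it. Arg1 was higher there, at 399, 1249, 3322 and 1969.7 CPM (1.82 ± 0.44, edgeR adjusted p = 0.0360), and so were Socs3 and Retnlg, the latter at no more than 61.8 CPM, below its B cell level. Arg1 in cycling cells lay above its level in the B cells of every library. In the resident-type and Lyve1 Folr2 macrophages and in immature neutrophils, 0 genes of the list were called by edgeR, with 5, 7 and 4 at an unadjusted p under 0.05 and 0, 1 and 0 called by DESeq2.

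**Figure D4:**
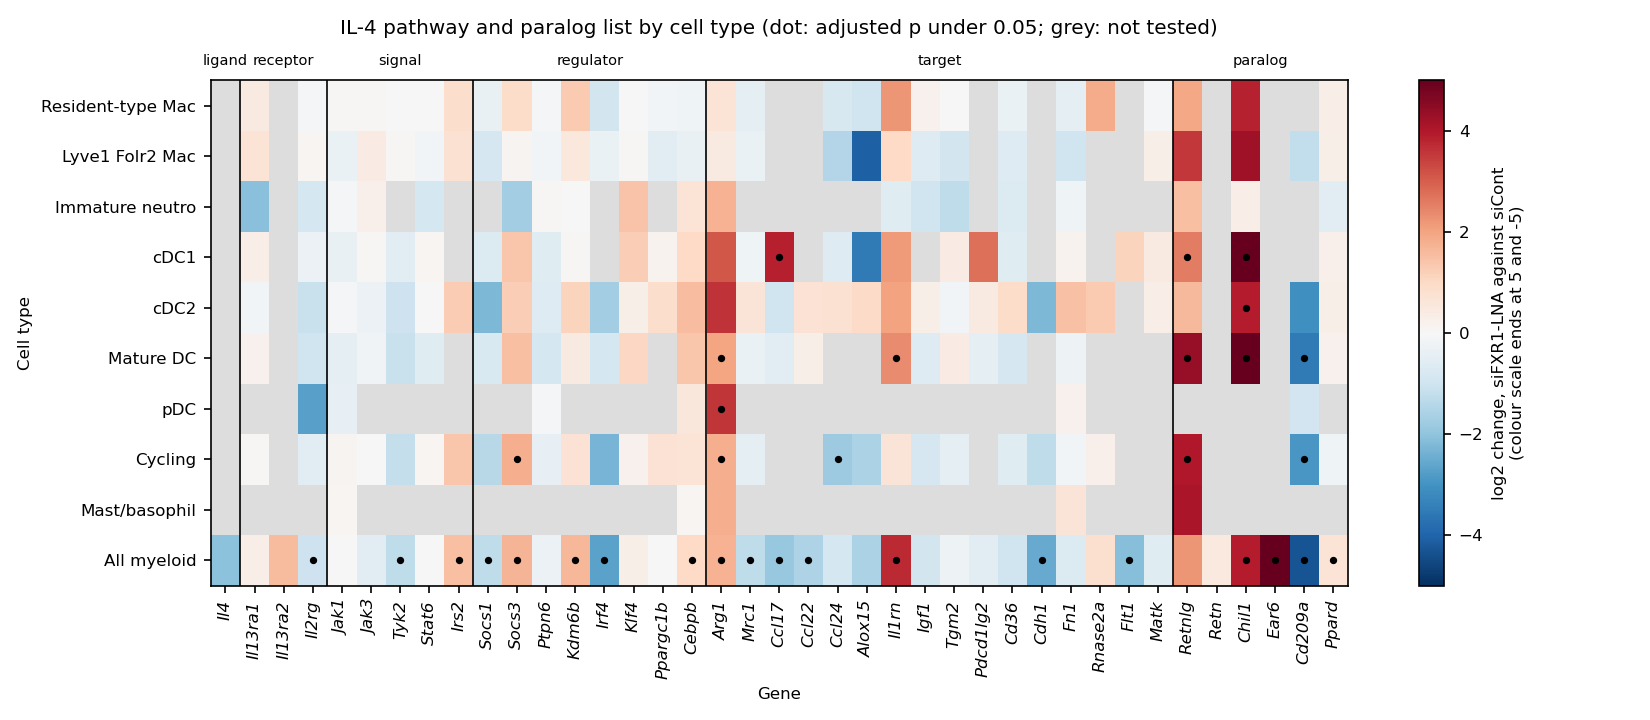
Log2 change of the listed pathway genes and paralogs in the libraries labelled siFXR1-LNA against those labelled siCont, by myeloid type, with red for higher, blue for lower, grey for not tested and a dot for an adjusted p under 0.05. Dots are most frequent over all myeloid cells, where 9 genes were higher and 10 lower, and absent from both macrophage types.

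Across the 12 named types, the genes most like each member were found by the Pearson correlation of the mean log2(CPM + 1), among 13627 genes and as a description, since types share libraries and depth. Cd300a (r = 0.92), Cd300lg and Fcrls were most like Retnla, and Sgms2 (r = 0.97), C3 and Per2 most like Chil3. Bfsp1 (r = 0.97), Bmp2 and Dmpk were most like Cbr2, and Rab29 (r = 0.95), Pnp and Rwdd2b most like Pparg. The remaining members had Gm45669 (Mgl2, r = 0.92), Cyp4f16 (Clec10a, r = 0.93), Gm13373 (Ear2, r = 0.93) and 3830403N18Rik (Il4ra, r = 0.86) at the head of their lists. Among the members themselves, Retnla and Cbr2 were the most alike (r = 0.84), followed by Mgl2 and Ear2 (r = 0.83), and Chil3 ran against Mgl2 (r = -0.69).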

How the data were processed

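Ascites cells were measured by 10x single-cell RNA sequencing in 2 libraries per group, each of 3 pooled mice, so that p-values measure the spread between pools. The authors deposited unnormalized UMI counts per gene and cell, which their processing notes credit to Cell Ranger 7.0.0 and the mm10 (GRCm38) build. After the study's methods, a cell needed 100 to 4800 genes, and mitochondrial genes could give no more than 15% of its UMIs. Myeloid cells were clustered in Seurat 5.3.0 (R 4.3.3) with the 8 genes left out (resolution 0.5, 50 components). A name needed at least 3 raised markers of its list and any marker of it among the 20 leading genes of the cluster. The methods set the gene and mitochondrial limits against poor cells and possible doublets. Since Scrublet (scanpy 1.11.5) marked almost no further cells, the 5% with the highest scores were removed as an alternative only. Counts were summed per type and library (at least 10 cells) and tested with edgeR 4.0.16 (TMM, filterByExpr, quasi-likelihood), with DESeq2 1.42.0 as an alternative. The scripts were tested on simulated data. Tests of B cells, and of changes against those of B cells, were added after the levels were seen. Shares of cells with a UMI were also taken after thinning to 1000 UMIs, and cover counting error only. The named genes were the 8 members everywhere and the pathway genes past the threshold. The members and lists were chosen with earlier results of these data known.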

Additional observations from a re-analysis of the deposited data

Results flagged for a closer look

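The changes of 5 members differed between broad lineages by an interaction test (edgeR, library as a block). Of all genes, 2.96% passed for neutrophils against macrophages, 4.58% for dendritic cells against macrophages and 1.17% for dendritic cells against neutrophils. Between neutrophils and macrophages the difference of log2 changes was 2.94 ± 0.62 for Pparg (edgeR adjusted p = 0.0275) and 1.71 ± 0.37 for Retnla (0.0290). Between dendritic cells and macrophages it was 4.66 ± 0.81 for Cbr2 (edgeR adjusted p = 0.00931), 3.50 ± 0.34 for Retnla (0.000415), 1.88 ± 0.40 for Pparg (0.0213), 1.69 ± 0.30 for Ear2 (0.0104) and 1.39 ± 0.28 for Clec10a (0.0178). Between dendritic cells and neutrophils it was 2.29 ± 0.48 for Ear2 (edgeR adjusted p = 0.0472) and 1.79 ± 0.36 for Retnla (0.0409). In these neutrophils Retnla stood at 67.8, 27.3, 12.3 and 4.51 CPM, beside 33.1, 9.61, 12.1 and 2.27 CPM in B cells, and the Pparg of the siCont libraries at 3 and 1 UMIs, so no difference is read from the neutrophil comparisons. The macrophages held Nos2 cells and the neutrophils mature cells in the libraries labelled siFXR1-LNA almost alone. Of the cDC2-like cells, 76.1% in siFXR1-LNA 1 and 43.9% in siFXR1-LNA 2 moved into a macrophage-like cluster at a lower resolution. None of the differences above passed among the clusters that every library held.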

How the results depend on the processing

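The 4 of 51 calls of members within types, beside 1.6% of all genes, became 17 of 70 with no filter on low counts (2.61% of all genes), 36 of 98 in 14 types set from the marker UMIs of each cell (8.34%), and 9 to 19 when 1 library was left out (1.25% to 4.21%). The 6 calls over all myeloid cells became 0 to 6 when 1 library was left out (0% to 12.5% of all genes, beside 18.9%). The 15 pathway calls within types became 53 with no filter, 94 with types from marker UMIs and 16 to 44 with 1 library left out, and the 19 over all myeloid cells became 0 to 17. The 9 lineage differences, beside 2.9% of all genes, became 14 with no filter (4.63%), 2 with types from marker UMIs (3.95%), 0 among the clusters that every library held (0.254%), and 2 to 10 with 1 library left out (0.404% to 5.29%). Reversed values were -4.72 for Pparg between neutrophils and macrophages among the clusters that every library held (edgeR adjusted p = 0.821), and for Ear2 between dendritic cells and neutrophils -1.23 with types from marker UMIs (0.528) and -0.12 among those clusters (0.977). The cause was not tested. The replicate numbers were not stated to pair libraries (correlation 0.34 over 15564 genes, 2 pairs), and a replicate block gave 11 member calls and 32 pathway calls within types (3.83% of all genes). Small types (41 and 54 immature neutrophil-like and 26 and 52 cycling cells in the libraries labelled siFXR1-LNA) limit the precision of their values. Fits with 1 library left out hold 1 library in a group, so their counts cannot show how stable a call is.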
